A study of Homo sapiens with 4 samples.

Results

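Genes for 10 secreted factors that act on blood vessels were followed in RNA-Seq data from FaDu cells, an established line from a squamous carcinoma of the hypopharynx. They were picked by gene symbol from a table of 62077 rows: VEGFA, VEGFB, VEGFC, PGF, PDGFA, PDGFB, ADM, ANGPTL4, EDN1 and STC2. Each symbol stood on 1 row, and all 10 were found. There were 4 libraries, 1 for each group. The group N-scr carried a scrambled control hairpin and was kept in normoxia, and the group H-scr carried the same control and was kept for 19 h in 1% oxygen. CO2 was at 5% in all 4 groups. N-si and H-si carried a knockdown of TET1 (TET1-si), which encodes a dioxygenase that oxidises 5-methylcytosine in DNA, in normoxia and in the same hypoxia. Per the study's methods the hairpins were delivered by lentivirus, and 1 TET1 hairpin sequence is listed, so that an effect of TET1 loss and an off-target effect of that hairpin cannot be told apart. No group had a replicate, so every difference is one between single libraries and no p-value is given.

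Hypoxic cells stabilise the transcription factors HIF-1 and HIF-2, which bind a short DNA core, the hypoxia response element, and activate genes that restore oxygen supply. The vascular endothelial growth factors (VEGF) and the related placental growth factor bind receptor tyrosine kinases on endothelial cells, and the platelet-derived growth factors (PDGF) act on pericytes and fibroblasts. Adrenomedullin is a vasodilator peptide and endothelin-1 a vasoconstrictor. ANGPTL4 inhibits lipoprotein lipase and modulates vessel permeability, and stanniocalcin-2 is a secreted glycoprotein that inhibits the protease PAPP-A. Carcinoma cells release many of these factors, while most of their receptors lie on other cells of the tumour.

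The data are FPKM, read fragments normalised to exon length and to library size, as deposited. Recovered depths ranged from 22600000 to 24600000 reads per library. TET1 itself was at 0.129 and 0.331 FPKM with the scrambled hairpin (normoxia, then hypoxia) and 0.0493 and 0.122 with TET1-si. All 9 epithelial markers examined had a mean of at least 1 FPKM, and their summed level ranged from 2894 FPKM in N-si to 11000 in H-scr. Keratins made up most of that sum. After TET1-si, KRT5, KRT8, KRT17, KRT18 and TP63 were lower in both oxygen states, TP63 only by little under hypoxia (54.8 against 53.4 FPKM). KRT19 and DSP were lower after TET1-si in normoxia but higher in hypoxia. Their levels in H-scr against H-si were 868.0 against 1014.3 FPKM and 72.8 against 86.3. EPCAM and CDH1 were higher after TET1-si in both oxygen states. EPCAM was at 154.5 FPKM in N-scr against 205.9 in N-si and 101.6 in H-scr against 163.4 in H-si. CDH1 was at 179.3 against 266.9 and 291.9 against 398.9. Of 9 endothelial markers in the table, CDH5, VWF and ENG passed that level, the sum ranged from 19.7 FPKM in N-scr to 61.2 in H-si, CLDN5 was listed at 0 in all libraries, and KDR and TIE1 stayed at or below 0.0434 FPKM. Of 9 fibroblast and mural markers COL1A1 and ACTA2 passed it, with sums from 9.02 FPKM in N-scr to 38.6 in H-si and with COL1A2, LUM and PDGFRA at 0 throughout. Leukocyte markers summed to at most 3.62 FPKM and erythroid markers to at most 0.569. These sums moved with the groups, and their part in the results below was not tested. In bulk RNA, fewer cells of a type and less RNA per cell cannot be told apart.

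The letters before the canonical start of each gene are shown first, since the hypoxia response element is the sequence through which HIF acts. Its core was searched as ACGTG or GCGTG on either strand, in the bases before the start of the canonical transcript (GENCODE, GRCh37, the build of the files). In the 300 bases before the start, 10 of 10 genes held a match, against 56.0% of 20162 protein-coding genes. ACGTG was found there in 4 of 10, against 23.5% of all. In 1000 bases, 10 of 10 held either core and 7 of 10 held ACGTG, against 84.6% and 51.6%. A match says only that the letters are present. Composition was not matched, and the starts used by FaDu cells were not measured. The span of a gene in the files can begin before its canonical start.

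VEGFA held 6 matches in 1000 bases, 3 of them ACGTG. The farthest lay 976 bases before the start, and the VEGFA promoter is known from other work for a distal hypoxia response element. The 200 bases that hold it, chr6:43736948-43737147 on the plus strand, are printed with the core in capitals.
VEGFA upstream: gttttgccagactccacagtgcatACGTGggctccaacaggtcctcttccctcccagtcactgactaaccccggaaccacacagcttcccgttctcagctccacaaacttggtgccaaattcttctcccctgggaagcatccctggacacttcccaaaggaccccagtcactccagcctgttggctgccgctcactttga

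For the 5 genes with the largest hypoxia response in scrambled cells, and for STC2, which was lower in hypoxia, 29 bases around the match nearest the start are compared. ACGTG was taken where a gene had it, and GCGTG for STC2, which had no ACGTG. Capitals mark the core, read 5′ to 3′ on the gene's strand, so that CACGT is ACGTG on the other strand. The ANGPTL4 and STC2 stretches lie inside the gene's span in the files, and the other 4 lie outside it.
ANGPTL4, chr19:8428793-8428821, plus strand, 234 bases before the start: ggaaagaagagtCACGTctcccacggttc
VEGFA, chr6:43737623-43737651, plus strand, 313 bases before the start: aggccctgtccgCACGTaacctcactttc
PGF, chr14:75422850-75422878, minus strand, 566 bases before the start: gagttctggagtCACGTaggcttgggttt
EDN1, chr6:12290459-12290487, plus strand, 123 bases before the start: tatctccggctgCACGTtgcctgttggtg
ADM, chr11:10325795-10325823, plus strand, 813 bases before the start: gcagtcagtcctCACGTttacgatggatt
STC2, chr5:172755623-172755651, minus strand, 222 bases before the start: acgcacgcaaacGCGTGgccgccgccagg

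STC2 held 5 matches in its 300 bases, more than any of the other 9 genes, all of them GCGTG. They are not separate sites throughout. The matches 235 and 231 bases before the start overlap, and those 277 and 271 bases before it lie in a short repeat. VEGFC and PDGFB each held ACGTG on both strands of 1 site, because there the letters read CACGTG, which is also the E-box of other factors. VEGFB, PDGFA and STC2 had no ACGTG in 1000 bases.

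**Figure D1:**
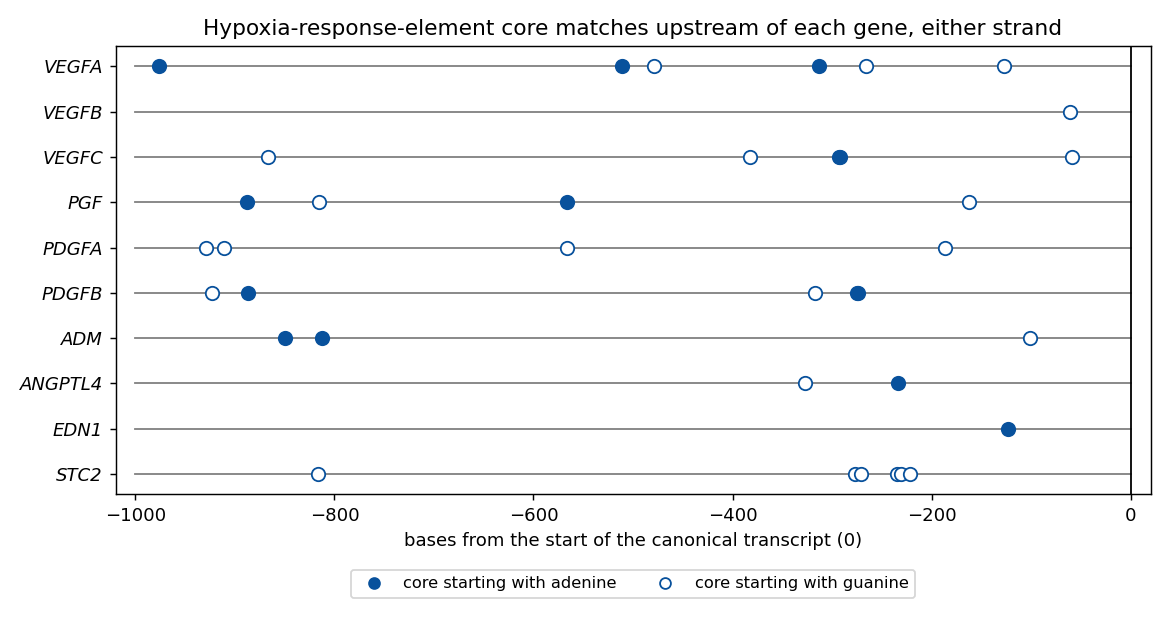
Matches to the hypoxia response element core before the canonical start of the 10 genes, on either strand, drawn at the distance in bases of their first base from the start of the canonical transcript (0). Filled circles are cores that start with adenine and open circles cores that start with guanine. STC2 has 5 open circles within 300 bases, VEGFB and EDN1 have a single match each, and the farthest VEGFA match lies at -976.

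Levels differed widely among the 10 genes. In N-scr, VEGFA led at 80.2 FPKM, followed by STC2 at 42.5, ADM at 21.1, VEGFB at 13.6, PDGFB at 13.4, PDGFA at 8.47, VEGFC at 4.53, PGF at 0.888, EDN1 at 0.670 and ANGPTL4 at 0.364. The 95% counting intervals of VEGFB and PDGFB overlapped there, as did those of PGF and EDN1 and of EDN1 and ANGPTL4. VEGFA was first in all 4 libraries. ADM held rank 3 in both scrambled libraries, rank 7 in N-si and rank 6 in H-si. PDGFB held rank 5 in the other 3 libraries and rank 2 in H-si. The values rested on approximately 14 reads (ANGPTL4 in N-scr) to 14383 reads (VEGFA in H-scr). A mean of at least 1 FPKM over the 4 libraries was asked of a gene before its change was counted, and 9 of 10 passed. EDN1, with a mean of 0.920, did not.

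**Figure D2:**
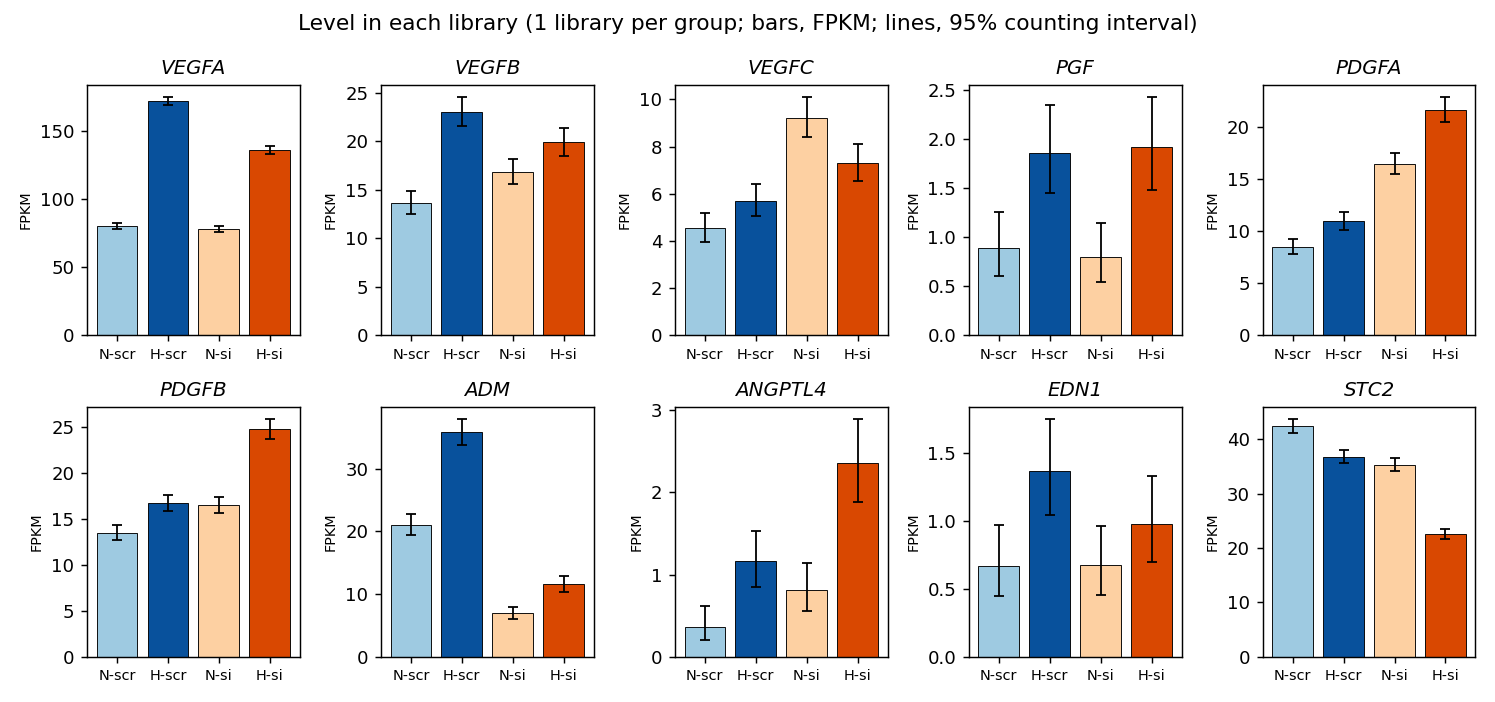
FPKM of the 10 genes in each of the 4 libraries (1 library per group), with a scale of its own from 0 for each gene. Bars are FPKM and lines the 95% counting interval, which covers counting error only. ADM is low in both TET1-si libraries, PDGFA and ANGPTL4 are higher than the scrambled library of the same oxygen state in both, and STC2 is lowest in H-si at 22.5 FPKM.

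The first question was how these genes responded to hypoxia, and whether they did so alike with the scrambled hairpin and with TET1-si. TET1 RNA in H-si was near its level in N-scr, but it was far under 1 FPKM in all 4 libraries. The extent of the knockdown is thus poorly measured here, and TET1 protein is not part of these data. In scrambled cells 9 of the 10 were higher in hypoxia and STC2 was lower. On the log2(FPKM + 0.1) scale, which makes the changes of low genes smaller, the median of the 10 was 0.76, against 0.05 for 15057 genes. In TET1-si cells 8 of 10 were higher, with a median of 0.53 against 0.03. Of all genes, 52.9% and 51.5% were higher in the respective comparison. The 10 include EDN1, which was under the minimum that the 15057 genes passed, so these medians and shares are a description. Counted at 2-fold, 2 of the 9 genes over the minimum rose in scrambled cells (VEGFA and ANGPTL4), where 12.9% of all genes did, and 0 fell, where 4.53% did. In TET1-si cells 2 of 9 rose (PGF and ANGPTL4) against 12.5%, and 0 fell against 8.66%. PGF and ANGPTL4 were under 1 FPKM in both normoxia libraries and passed the minimum only through the hypoxia libraries, so nothing is read from these counts. At a minimum mean of 5 FPKM, which neither passes, they were 1 and 0. The counts at 2-fold were small and lay on a few values near the limit, such as PGF with 0.99 in scrambled cells. Leaving out the pseudocount raised the first count to 3, with PGF, and rescaling to TPM raised it to 4. Median-of-ratios scaling lowered it to 1, because VEGFA was then at 0.99.

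VEGFA (ENSG00000112715, chromosome 6, 43737921 to 43754224, plus strand, hg19) encodes the main endothelial mitogen of hypoxic tissue. It had 80.2 FPKM in normoxia and 172.2 in hypoxia with the scrambled hairpin, against 77.9 and 136.0 with TET1-si. Both hypoxia libraries were above both normoxia libraries, and the TET1-si hypoxia library was the lower of the pair. The ratio of hypoxia to normoxia was 2.15 in scrambled cells, with a log2 ratio of 1.10 and a 95% counting interval from 1.06 to 1.15, and 1.75 in TET1-si cells (log2 0.80, 0.76 to 0.85). Subtracting the scrambled response from the TET1-si response gave -0.30, with an interval from -0.36 to -0.24. These intervals are for ratios without a pseudocount and say nothing of the spread between cultures. Its change in scrambled cells was larger than that of 88.8% of all genes. That change was under 2-fold with median-of-ratios scaling (0.99) and relative to its 50 nearest genes on the chromosome (0.93). With upper-quartile scaling (1.04) and TPM (1.22) it stayed over 2-fold. All of these lay outside the counting interval.

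VEGFB (ENSG00000173511, chromosome 11, 64002010 to 64006259, plus strand), which binds VEGFR-1 and not VEGFR-2, had scrambled levels of 13.6 (normoxia) and 23.0 FPKM (hypoxia) and TET1-si levels of 16.9 and 19.9. The hypoxic level was 1.69 times the normoxic one with the scrambled hairpin but 1.18 times with TET1-si, a difference of -0.52 on the log2 scale without a pseudocount (-0.74 to -0.29).

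VEGFC (ENSG00000150630, chromosome 4, 177604689 to 177713881, minus strand) drives lymphatic vessel growth through VEGFR-3. It had 4.53 and 5.71 FPKM with the scrambled hairpin (normoxia, then hypoxia) and 9.22 and 7.31 with TET1-si. Its level was higher in hypoxia in scrambled cells, with a log2 ratio of 0.33 (0.08 to 0.60), and lower in hypoxia in TET1-si cells, at -0.34 (-0.54 to -0.13). The difference, -0.67 (-1.01 to -0.34), was the lowest of the 10.

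PGF (ENSG00000119630, chromosome 14, 75408537 to 75422487, minus strand), a ligand of VEGFR-1, had 0.888 FPKM in normoxia and 1.86 in hypoxia with the scrambled hairpin, against 0.801 and 1.93 with TET1-si, on approximately 31, 70, 30 and 66 reads respectively. The 2 hypoxia libraries stood together above the 2 normoxia libraries. Its ratios of hypoxia to normoxia were 2.10 and 2.41, and the difference of 0.20 had an interval from -0.76 to 1.11, so that a change of the response was not detectable at this depth.

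The PDGF genes stayed under 2-fold in hypoxia. PDGFA (ENSG00000197461, chromosome 7, 536895 to 559933, minus strand), which encodes the A chain, had scrambled levels of 8.47 (normoxia) and 10.9 FPKM (hypoxia) and TET1-si levels of 16.4 and 21.6. The hypoxia level was 1.29 times that of normoxia with the scrambled hairpin and 1.32 times with TET1-si, a difference of 0.03 (-0.18 to 0.24). PDGFB (ENSG00000100311, chromosome 22, 39619364 to 39640756, minus strand), which encodes the B chain, had 13.4 and 16.7 FPKM with the scrambled hairpin (normoxia, then hypoxia) and 16.4 and 24.7 with TET1-si. Its ratios were 1.24 and 1.51, and PDGFB was the only one of the 10 whose interval of the difference lay above 0 (0.28, 0.13 to 0.43).

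Of the vasoactive peptides, ADM (ENSG00000148926, chromosome 11, 10326227 to 10328944, plus strand) encodes adrenomedullin. It had 21.1 FPKM in normoxia and 35.9 in hypoxia with the scrambled hairpin, against 6.94 and 11.6 with TET1-si. Hypoxia was higher than normoxia in each knockdown state, but both TET1-si libraries lay below both scrambled libraries. The ratios of hypoxia to normoxia were 1.70 and 1.67, which differed by -0.03 on the log2 scale (-0.31 to 0.27). EDN1 (ENSG00000078401, chromosome 6, 12290596 to 12297427, plus strand), the endothelin-1 gene, had scrambled levels of 0.670 (normoxia) and 1.36 FPKM (hypoxia) and TET1-si levels of 0.671 and 0.975, on approximately 28 to 61 reads. The interval of its log2 ratio in scrambled cells ran from 0.36 to 1.73, and that in TET1-si cells from -0.19 to 1.26, which includes 0. A difference between the responses was not detectable (-1.51 to 0.52).

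ANGPTL4 (ENSG00000167772, chromosome 19, 8428173 to 8439257, plus strand) had 0.364 and 1.16 FPKM with the scrambled hairpin (normoxia, then hypoxia) and 0.813 and 2.36 with TET1-si. Its level was higher in hypoxia in each knockdown state and higher after TET1-si in each oxygen state. Hypoxia gave 3.19 times the normoxia level with the scrambled hairpin and 2.90 times with TET1-si, the highest ratios of the 10. The log2 intervals ran from 0.76 to 2.63 and from 0.94 to 2.16. In scrambled cells the interval overlapped those of VEGFA, VEGFB, PGF, ADM and EDN1, and in TET1-si cells those of PGF, ADM and EDN1. With a pseudocount of 1 the ANGPTL4 change in scrambled cells was 0.66, under VEGFA (1.09), ADM (0.74) and VEGFB (0.72). The reads were few, approximately 14, 47, 33 and 88 in N-scr, H-scr, N-si and H-si.

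STC2 (ENSG00000113739, chromosome 5, 172741716 to 172756506, minus strand) ran the other way. It had 42.5 FPKM in normoxia and 36.7 in hypoxia with the scrambled hairpin, against 35.4 and 22.5 with TET1-si, so that hypoxia was lower in each knockdown state. The log2 ratio was -0.21 in scrambled cells (-0.27 to -0.14) and -0.65 in TET1-si cells (-0.73 to -0.57), a difference of -0.44 (-0.54 to -0.34). STC1, the other human stanniocalcin, had 0.688, 5.01, 0.920 and 4.16 FPKM in N-scr, H-scr, N-si and H-si and rose in both knockdown states. The counting intervals of the difference lay below 0 for VEGFA, VEGFB, VEGFC and STC2, above 0 for PDGFB, and included 0 for the other 5. Such intervals were not made for all genes. On the log2(FPKM + 0.1) scale 44.6% of all genes had a difference above 0. A lower difference than that of VEGFA was found in 30.8% of them, than VEGFB in 19.4%, than VEGFC in 14.6% and than STC2 in 22.6%. For PDGFB this share was 77.3%.

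**Figure D3:**
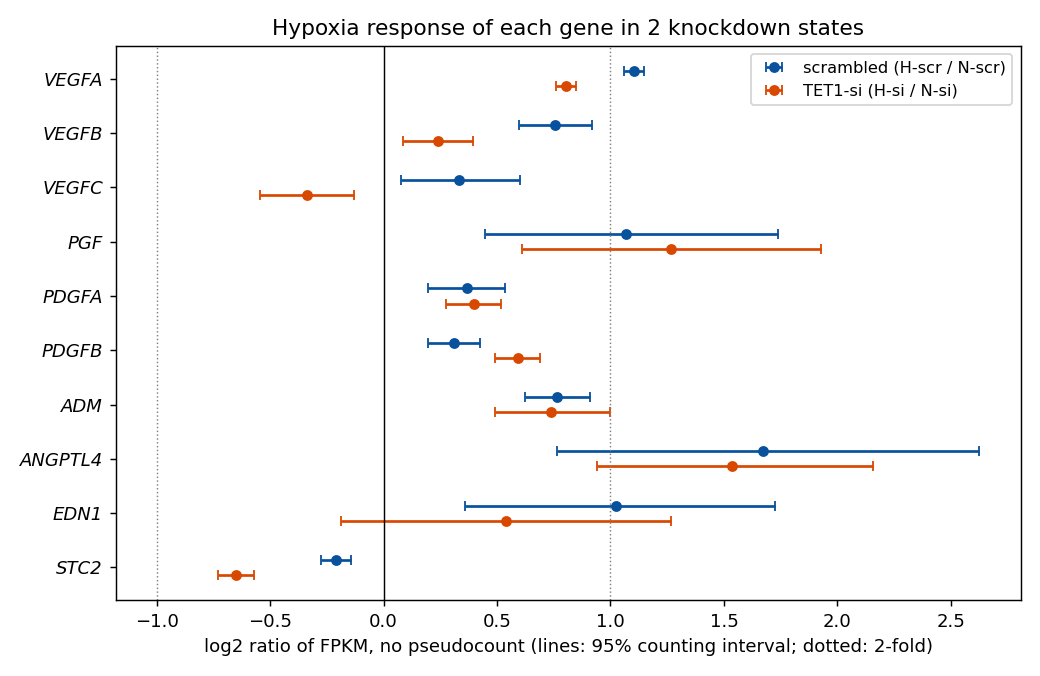
Hypoxia response of the 10 genes in scrambled cells (blue) and TET1-si cells (orange), as the log2 ratio of FPKM without a pseudocount. Points are ratios of 2 single libraries, horizontal lines the 95% counting interval, and dotted lines mark 2-fold. STC2 lies below 0 in both states and VEGFC on either side of 0, at 0.33 and -0.34.

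The second question was what TET1-si did to the same genes in each oxygen state. The 10 divided, with a median change of -0.08 under hypoxia (5 higher, 5 lower) and 0.15 under normoxia (6 higher, 4 lower), against 0.10 and 0.15 for all genes. Under hypoxia 0 of 9 genes rose 2-fold, where 12.0% of all genes did, and 1 fell (ADM), where 8.35% did. Under normoxia 1 rose (VEGFC, at 1.01), where 12.1% did, and 1 fell (ADM), where 5.56% did. VEGFC was under 2-fold with a pseudocount of 1 (0.89), with median-of-ratios scaling (0.84), with upper-quartile scaling (0.84) and relative to its neighbouring genes (0.76, with a median of 0.25 for the neighbours). PDGFA and ANGPTL4 lay just under the limit, with changes from 0.95 to 0.98 in both oxygen states, and without a pseudocount ANGPTL4 passed it in both. The count of rising genes thus went from 0 to 1 under hypoxia and from 1 to 2 under normoxia. TPM gave 2 in each. Other settings lowered ANGPTL4. A pseudocount of 1 gave 0.64 under hypoxia and 0.41 under normoxia. Median-of-ratios scaling gave 0.82 and 0.84, and upper-quartile scaling 0.86 and 0.83. PDGFA was at 0.84 and 0.78 with median-of-ratios scaling.

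ADM changed most. Its level in scrambled cells was 3.10 times that in TET1-si cells under hypoxia and 3.04 times under normoxia. The log2 ratios were -1.63 (-1.81 to -1.45) and -1.60 (-1.84 to -1.38), and 3.51% and 2.59% of all genes had a lower change. Even in hypoxia the TET1-si level of 11.6 FPKM was below the 21.1 FPKM of normoxic scrambled cells. Part of chromosome 11 around ADM was also lower. The 50 nearest protein-coding genes over the minimum had a median change of -0.41 under hypoxia and -0.33 under normoxia, and relative to them ADM stood at -1.21 and -1.26. The part of these neighbours' change in that of ADM was not tested.

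PDGFA and ANGPTL4 were higher after TET1-si in both oxygen states. For PDGFA the ratio of TET1-si to scrambled was 1.98 under hypoxia and 1.94 under normoxia, with log2 intervals from 0.85 to 1.12 and from 0.80 to 1.11. Its 26 nearest genes, fewer because the gene lies near the end of chromosome 7, had medians of 0.10 and 0.18. For ANGPTL4 the ratios were 2.03 (0.50 to 1.57 on the log2 scale) and 2.23 (0.20 to 2.16). Its neighbours were lower, with medians of -0.24 and -0.25, and relative to them ANGPTL4 passed 2-fold, at 1.21 and 1.23. PDGFB was higher as well, with ratios of 1.49 and 1.22. Its normoxia change was 0.29 on the log2(FPKM + 0.1) scale, against a median of 0.15 for all genes. It was 0.12 with median-of-ratios and with upper-quartile scaling, 0.34 with TPM and 0.38 relative to neighbouring genes.

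The VEGF genes did not move together. VEGFA had a ratio of TET1-si to scrambled of 0.790 under hypoxia (log2 -0.38 to -0.30) and 0.972 under normoxia (-0.09 to 0.01). The normoxia difference was within counting error for the deposited values, but it depended on the scaling. TPM turned its sign (0.0085), while median-of-ratios and upper-quartile scaling each gave -0.21, below that interval. Relative to neighbouring genes it was -0.10. VEGFB had ratios of 0.864 under hypoxia and 1.24 under normoxia, and VEGFC of 1.28 and 2.04. The genes around VEGFB had a median of 0.31 under normoxia, so that VEGFB relative to them was at -0.0053. For PGF the interval included 0 in both states, and 2 of the 3 scalings turned its small change under hypoxia from 0.05 to -0.09 or -0.06. The genes around PGF were higher, with medians of 0.52 under hypoxia and 0.65 under normoxia, and relative to them PGF was at -0.47 and -0.78. STC2 was lower in both, with ratios of 0.614 and 0.833. EDN1 had intervals that included 0, from -1.10 to 0.11 under hypoxia and from -0.78 to 0.81 under normoxia. Of the 10 genes, ADM alone met the 3 inequalities that the study used for genes regulated by TET1 under hypoxia (an H-scr level over 2 times that of H-si and over that of N-scr, with N-si no higher than N-scr), which 3.84% of the 15057 genes met. The same held under each of the 3 other scalings.

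**Figure D4:**
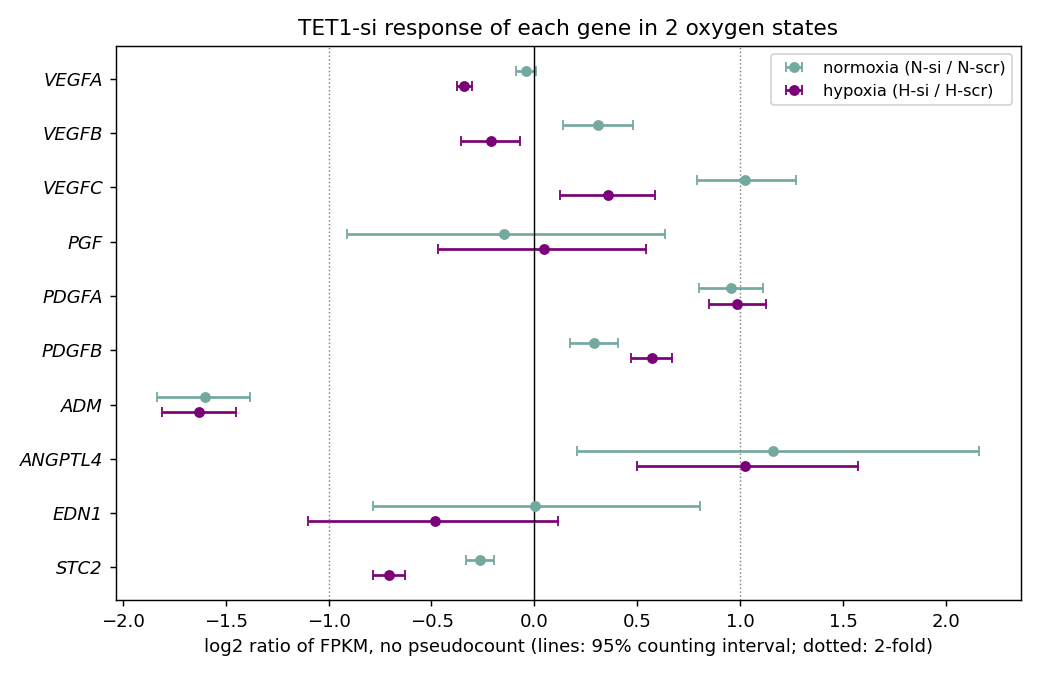
TET1-si response of the 10 genes under normoxia (green) and hypoxia (purple), as the log2 ratio of FPKM without a pseudocount. Points are ratios of 2 single libraries, horizontal lines the 95% counting interval, and dotted lines mark 2-fold. ADM lies at -1.60 and -1.63, while PDGFA and ANGPTL4 lie near 1 in both oxygen states.

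**Figure D5:**
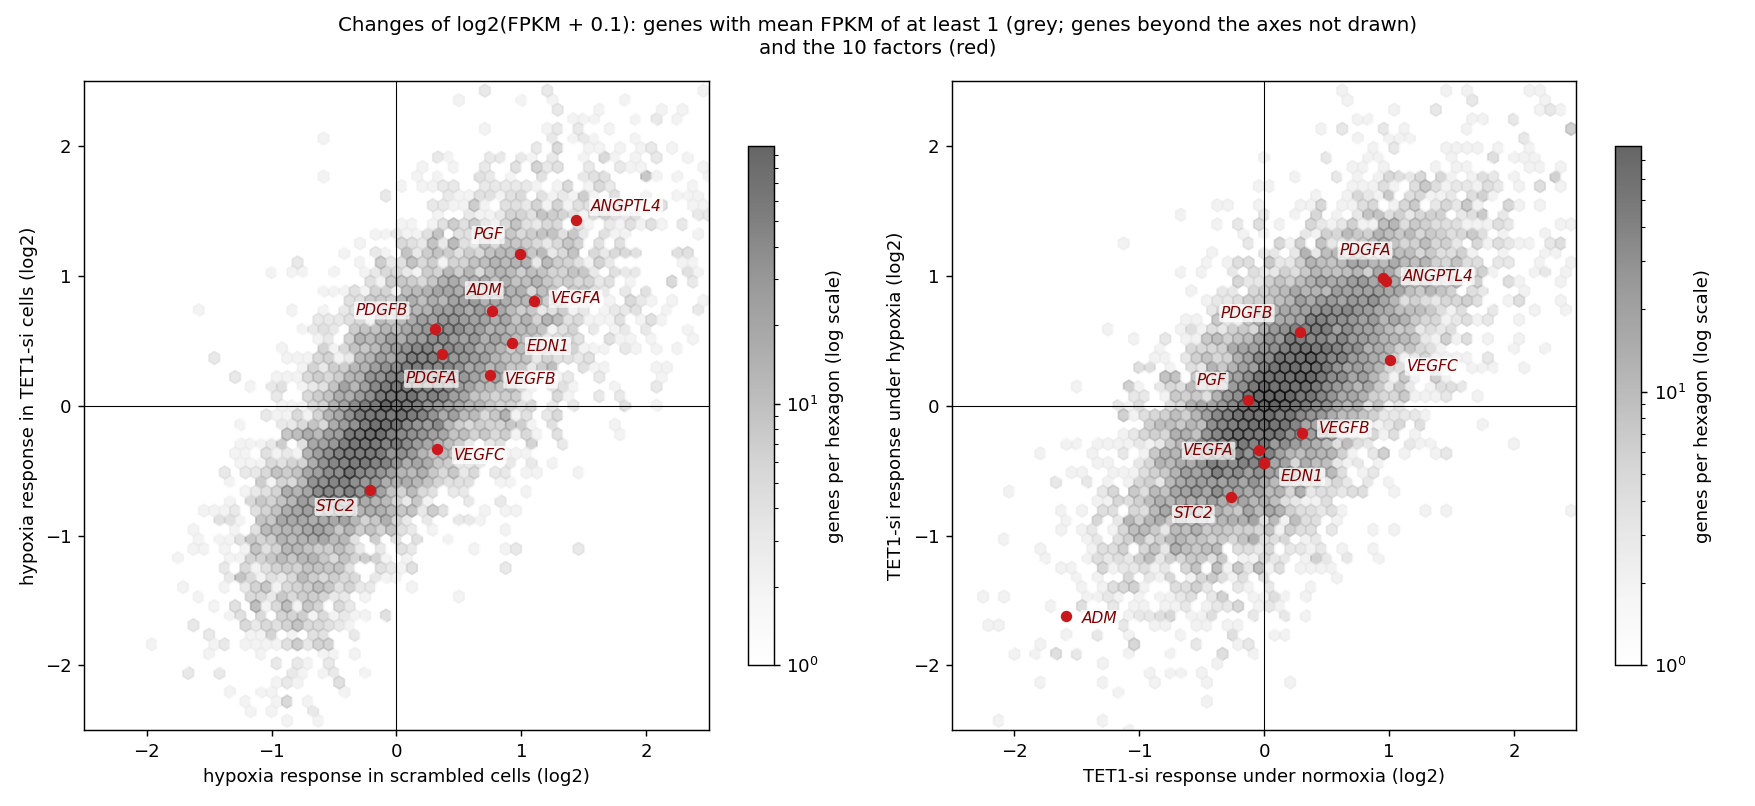
The 10 genes (red) among all genes with a mean of at least 1 FPKM (grey hexagons, darker with more genes), on the log2(FPKM + 0.1) scale. The left panel sets the hypoxia response in scrambled cells (horizontal) against that in TET1-si cells (vertical), and the right panel the TET1-si response under normoxia against that under hypoxia. On the left 8 of the 10 genes lie above 0 on both axes, and on the right ADM lies far to the lower left at -1.59 and -1.62.

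Receptors for these ligands were mostly at or near 0. Of 21 receptors and partners listed, 20 were in the table and 4 had a mean of at least 1 FPKM: NRP1, NRP2, ITGB1 and ITGAV. The VEGF receptor genes FLT1, KDR and FLT4 stayed at or below 0.755 FPKM. PDGFRA, EDNRB, RAMP2 and RAMP3 were listed at 0 in all libraries, and CALCRL, whose product binds adrenomedullin together with RAMP proteins, reached 0.475 FPKM in H-scr. NRP1, a coreceptor of VEGFA, had scrambled levels of 24.3 (normoxia) and 13.4 FPKM (hypoxia) and TET1-si levels of 28.7 and 11.8, and fell 2-fold in TET1-si cells. NRP2, a coreceptor of VEGFC, had 5.15, 2.10, 3.55 and 2.94 FPKM in the same order and fell 2-fold in scrambled cells. ITGAV, an integrin subunit, rose in both knockdown states, from 18.5 to 48.8 and from 21.7 to 51.8 FPKM. ITGB1 was at 329.0, 286.5, 199.2 and 170.0 FPKM. In hypoxia 1 of the 4 rose and 1 fell in scrambled cells, against 12.9% and 4.53% of all genes. In TET1-si cells 1 rose and 1 fell, against 12.5% and 8.66%. None of the 4 passed 2-fold after TET1-si. Of all genes, 12.0% rose and 8.35% fell under hypoxia, and 12.1% rose and 5.56% fell under normoxia. With 4 genes, nothing is read from these counts.

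A list of 48 other secreted angiogenic, antiangiogenic and vasoactive factors had 27 over the minimum. In hypoxia 9 of 27 rose and 0 fell in scrambled cells, where 12.9% and 4.53% of all genes did, and the median was 0.82 against 0.05. In TET1-si cells 8 rose and 2 fell, against 12.5% and 8.66%, and the median was 0.62 against 0.03. Some of the risers, such as FGF1 and STC1, passed the minimum only through hypoxia libraries, where they were high, so these counts and medians are a description. After TET1-si 8 rose and 5 fell in each oxygen state, against 12.0% and 8.35% under hypoxia and 12.1% and 5.56% under normoxia. The medians were 0.21 and 0.47, against 0.10 and 0.15. ANG, which encodes angiogenin, had the largest change in scrambled cells, at 0.648 and 7.62 FPKM with the scrambled hairpin (normoxia, then hypoxia) and 1.16 and 3.42 with TET1-si. FGF1 had 0.126, 0.959, 0.988 and 7.73 FPKM in the same order. EDN2, an endothelin paralog of EDN1, had 1.34, 5.58, 2.0 and 17.0 FPKM. The paralog was thus above EDN1 in each library.

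Proteins that mature or release the factors formed the last list, with 16 of 24 over the minimum. In scrambled cells 4 of 16 rose in hypoxia and 2 fell, against 12.9% and 4.53% of all genes, with a median of 0.33 against 0.05. In TET1-si cells 4 rose and 1 fell, against 12.5% and 8.66%, with a median of 0.53 against 0.03. After TET1-si 3 rose and 2 fell under hypoxia, against 12.0% and 8.35%, and 3 rose and 3 fell under normoxia, against 12.1% and 5.56%. The medians were -0.17 and -0.15, against 0.10 and 0.15. HPSE and MMP2, named after their values were seen, were among the risers after TET1-si. HPSE passed the minimum only through the TET1-si libraries, and MMP2 was under 1 FPKM in N-scr. The counts after TET1-si are thus a description. PAM, the enzyme that amidates adrenomedullin, rose in hypoxia in both knockdown states, from 23.6 to 61.4 FPKM and from 25.1 to 55.3. PLAT, the tissue plasminogen activator, rose with the scrambled hairpin, from 19.5 to 101.4 FPKM, and was at 18.3 and 28.1 with TET1-si. ECE2, an endothelin-converting enzyme, fell from 3.52 to 1.01 FPKM in scrambled cells. HSPG2, whose product perlecan binds growth factors in the matrix, rose from 1.23 to 3.24 and from 2.80 to 5.92 FPKM. LPL, the lipase that ANGPTL4 inhibits, was listed at 0 in all libraries.

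Profiles like those of 2 genes were looked up among 9465 protein-coding genes with a mean of at least 5 FPKM, by Euclidean distance of the centred log2 values over the 4 libraries. Nearest to VEGFA were LRCH4 (distance 0.0996), DDR1 (0.102) and PNPLA8 (0.124). DDR1, for example, had 130.7 FPKM in normoxia and 281.6 in hypoxia with the scrambled hairpin, against 117.1 and 221.6 with TET1-si. Nearest to ANGPTL4 were HMHA1 (0.148), DOK4 (0.167) and ABCA5 (0.178). With 4 values to a profile, many genes come close to any one of them.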

How the data were processed

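RNA-Seq was done on 4 FaDu libraries, 1 per group. Per the labels and the study's methods, the authors ran TopHat and Cufflinks with Ensembl annotations on hg19. Versions, filters and strandedness are not given in the sources used here. The labels name single-end reads and the methods paired-end reads. The deposited values are FPKM per gene, 1 column per library. Rows whose ID is repeated (232) were left out. None of the 10 genes was among them. GENCODE v44lift37 held the IDs of 86.3% of rows. Reads are not stated to keep strand, so genes that overlap can share them.

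Changes were differences of log2(FPKM + 0.1) between libraries, counted at 2-fold over the 15057 genes whose mean FPKM was 1 or more. Since FPKM hold no counts, count models were not used. Depth was recovered from genes with 1 exon, as the value that made low FPKM whole numbers of reads (91.1% to 93.2% within 0.05). Approximate reads used the GENCODE canonical transcript less 214 bp, and gave exact Clopper-Pearson intervals of ratios and exact conditional odds-ratio intervals of their differences. They cover counting error only. Starts in the files count from 0, and 1 was added. The code was tested on simulated data. Alternatives were other pseudocounts, minimums, scalings, a transcript length and, added after seeing the data, the change relative to neighbouring genes.

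The genes, the lists and the tests were chosen with earlier results of these data known. The text names all 10 genes, at most 4 genes of each list by size of their scrambled-cell hypoxia response and, for 2 genes, the 3 nearest profiles. TET1 and some cell type markers are named as well, and of these the single epithelial markers were named after their values were seen. Others are marked as chosen after their values were seen, or are named as at or near 0. Tools were Python 3.11.15, numpy 2.4.6, pandas 2.3.3, scipy 1.17.1 and matplotlib 3.10.9.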

Additional observations from a re-analysis of the deposited data

Results flagged for a closer look

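The same contrast had opposite signs in the 2 states for 4 genes, on the log2(FPKM + 0.1) scale. No replicate exists, so none of these differences was tested against the spread between cultures. VEGFC was higher in hypoxia in scrambled cells (0.33) and lower in TET1-si cells (-0.33), a difference of -0.66. VEGFB was higher after TET1-si under normoxia (0.31) and lower under hypoxia (-0.21), a difference of -0.52. The normoxia value was 0.14 with median-of-ratios scaling, 0.13 with upper-quartile scaling and 0.36 with TPM. Relative to neighbouring genes it was -0.0053, so that the opposite signs rest on the deposited scale. PGF changed by -0.13 under normoxia and 0.05 under hypoxia, a difference of 0.18 within counting error. EDN1 changed by 0.0021 under normoxia and -0.44 under hypoxia, a difference of -0.45 that is also within counting error. With 1 library per group, no group could be searched for a deviating sample.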

How the results depend on the processing

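No paired analysis was possible because each group had 1 library. Changes of single genes moved outside their counting interval in 14 cases with median-of-ratios scaling (31 stayed within), 9 with upper-quartile scaling (36), 8 with TPM (42), 2 with a pseudocount of 1 (43) and 15 relative to neighbouring genes (35). The filters cannot alter a gene's value, and the interval is built around the ratio without a pseudocount, so these settings are not counted there. In no setting did a change past 2-fold turn its sign. Small changes within 0.05 of 0 turned sign under a scaling in 5 cases, in PGF, ADM, ANGPTL4 and VEGFA. The counts at 2-fold were sensitive, since several genes lay near the limit. Genes higher in hypoxia in scrambled cells, 2 as reported, were 3 without a pseudocount, 1 with a pseudocount of 1, 1 at a minimum mean of 5 FPKM, 1 with median-of-ratios scaling, 4 with TPM and 1 relative to neighbouring genes. Genes higher in hypoxia in TET1-si cells, 2 as reported, were 0 with a pseudocount of 1 and 0 at a minimum mean of 5. Genes higher after TET1-si under hypoxia, 0 as reported, were 1 without a pseudocount, 2 with TPM and 1 relative to neighbouring genes. Genes higher after TET1-si under normoxia, 1 as reported, were 2 without a pseudocount, 0 with a pseudocount of 1, 0 with median-of-ratios scaling, 0 with upper-quartile scaling and 2 with TPM. Relative to neighbouring genes that count was 1, but the gene was ANGPTL4 (1.23) and not VEGFC (0.76). ADM stayed the 1 gene lower after TET1-si in both oxygen states under these settings. With the shortest protein-coding transcript behind the reads, which is a fragment for several genes and leaves fewer reads, intervals that exclude 0 went from 10 to 4 for the hypoxia response in scrambled cells, from 7 to 4 for TET1-si in normoxia, and from 5 to 2 for the difference of hypoxia responses. The cause of the other shifts was not tested. Depth limits PGF, EDN1 and ANGPTL4, which had 14 to 88 reads in a library.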

Other observations

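Among the 27 other secreted factors over the minimum, 9 were at least 2-fold changed after TET1-si in both oxygen states. These genes are named after their values were seen. Lower in both were 4 of 27, against 3.06% of all genes: EFNB2, IL8, CXCL1 and CTGF. IL8, the gene of the angiogenic chemokine interleukin-8, had 17.0 and 41.8 FPKM with the scrambled hairpin (normoxia, then hypoxia) and 2.74 and 1.17 with TET1-si. CXCL1, a chemokine of the same family, had 27.4, 54.2, 2.35 and 1.74 FPKM in that order. Higher in both were 5 of 27, against 6.51%: PDGFD, FGF1, TGFB2, THBS1 and NTN4. FGF1 passed the minimum only through H-si, where it was high, so that this count is a description. TGFB2 had 14.5, 9.67, 66.5 and 50.5 FPKM, and THBS1, the gene of the angiogenesis inhibitor thrombospondin-1, had 49.0, 32.6, 100.4 and 104.5.

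SERPINF1, the gene of the angiogenesis inhibitor PEDF and also named after its values were seen, had 12.8 FPKM in normoxia and 30.6 in hypoxia with the scrambled hairpin, against 17.8 and 113.5 with TET1-si. The change in hypoxia was 1.25 with the scrambled hairpin and 2.67 with TET1-si on the log2(FPKM + 0.1) scale. Of the 16 maturation and release genes over the minimum, 1 was at least 2-fold lower after TET1-si in both oxygen states, against 3.06% of all genes, and 2 were higher, against 6.51%. They too are named after their values were seen. PLAU, the urokinase gene, was lower after TET1-si in both oxygen states, with scrambled levels of 223.5 (normoxia) and 313.9 FPKM (hypoxia) and TET1-si levels of 95.3 and 147.7. HPSE, the heparanase gene, was higher, at 0.818, 0.870, 5.16 and 5.23 FPKM in N-scr, H-scr, N-si and H-si. MMP2, a gelatinase gene, was higher as well, at 0.597, 1.25, 3.12 and 4.21 FPKM. HPSE was under 1 FPKM in both scrambled libraries and passed the minimum only through the TET1-si libraries. MMP2 was under 1 FPKM in N-scr and highest in the TET1-si libraries. The count of higher genes is therefore a description.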
